A study of Caenorhabditis elegans with 14 samples.

Results

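The cytosolic ribosomal protein genes of *C. elegans* were followed across mutants of the IκB homologs *nfki-1* and *ikb-1*. Members were taken by name, as every gene whose name begins with *rpl-* (large subunit) or *rps-* (small subunit) followed by a number. This gave 76 of the 42048 genes counted, 45 of them *rpl* and 31 *rps*. All 76 passed the filter on low counts in every fit.

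Each ribosome is built from a large subunit, which joins amino acids, and a small subunit, which reads the message. Every ribosome needs about one copy of each of its proteins, so their genes are among the most strongly expressed of any growing animal, and their transcripts usually move together. Larvae of *C. elegans* adjust growth to food, and newly hatched L1 larvae that are starved stop developing until they feed.

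The measurements are RNA-seq read counts of whole synchronized larvae in 14 libraries, with 2 files in each of 7 groups. At the L4 stage, collected after 36 h at 25 °C, the groups were *nfki-1(cer1)*, *ikb-1(nr2027)*, the double mutant of these alleles, and WT. At the L1 stage they were *nfki-1(cer2)*, *ikb-1(cer9)* and WT, and all of them had been fed for 5 h and then starved for 3 h at 25 °C, so fed and starved larvae cannot be set against each other. The alleles *cer1* (a CRISPR-made deletion) and *cer2* (a deletion with an insertion) lie at or near exon 2 of *nfki-1* and create early stop codons. In *ikb-1*, *cer9* removes the start codon and *nr2027* removes sequence for the ankyrin repeats. WT was the N2(Bristol) strain. Mutants are also called by their allele alone, *cer1* and *cer2* for *nfki-1* and *nr2027* and *cer9* for *ikb-1*. Because the alleles differ between stages, a stage comparison within *nfki-1* or *ikb-1* mutants also compares alleles.

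Reads counted on genes came to 19735958 to 22373456 per file at L4 and 57740500 to 63394016 per library at L1. The transcript of *nfki-1*, listed as C33A11.1, stood at 7.20 to 8.61 CPM (counts scaled to library size, here with TMM factors) in the L4 files of *nfki-1(cer1)* and the double mutant, against 42.1 and 42.7 CPM in WT, and at 89.8 and 70.1 CPM in *nfki-1(cer2)* at L1, against 143 and 137 CPM in WT. That of *ikb-1* stood at 2.91 to 4.05 CPM in the L4 files of *ikb-1(nr2027)* and the double mutant, against 13.3 and 13.6 CPM in WT, and at no more than 2.61 CPM in *ikb-1(cer9)* at L1, against 47.9 and 45.01 CPM in WT. These levels go with the labels. The 2 files of an L4 strain differed from each other in the same genes in every strain: across members, the file differences of any pair of strains correlated at r = 0.982 to 0.996 (a description over genes). Once that shared difference was removed, the squared difference between the files was 0.464 to 0.523 of the counting variance, that is, below sampling noise. The files of an L4 strain were therefore added up and counted as 1 sample. At L1 the corresponding ratios were 6.78 to 13.2, and the 2 libraries were kept as replicates. Nothing in the labels says that replicates came from separate cultures, so p-values measure the spread between these samples, which may be technical. At L4 that spread was borrowed from the L1 replicates.

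In WT the family was high and even at both stages. To compare genes with each other, levels were given as RPKM (gene reads scaled by library size and by the length of the exons), for the 75 members matched to the annotation. In WT at L4 the median member stood at 3376 RPKM, and 62 of 75 members lay within 2-fold of it. In WT at L1 the median was 2826 RPKM and 64 of 75 members lay within 2-fold of it. The highest at L4 was *rps-25*, a small subunit protein, with 7884 and 7336 RPKM in the 2 files. *rpl-10*, whose protein joins the large subunit late in its assembly, had 5781 and 6203 RPKM, and *rps-23*, whose protein sits where codons are read, had 5899 and 6010 RPKM. *rps-23* and *rps-25* were also the highest members at L1, at 5384 and 4481 RPKM and at 5318 and 4288 RPKM, followed by *rpl-43*, a large subunit protein gene, at 4691 and 3807 RPKM. Values of these 3 genes at L1 overlapped, so their order is not resolved beyond the spread between libraries.

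**Figure D1:**
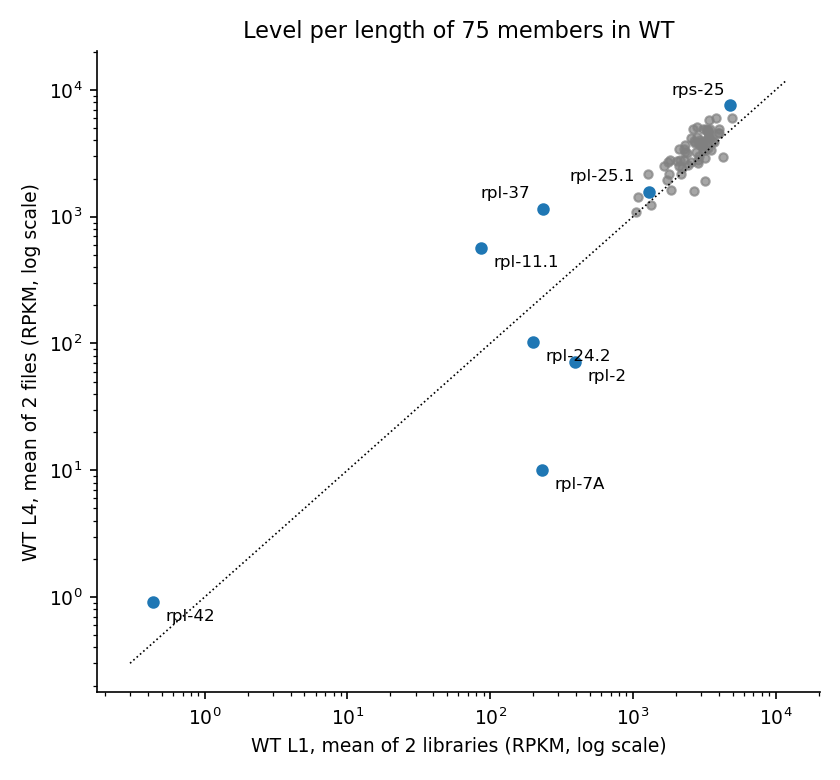
Level of each of the 75 annotated members in WT at L4 and in WT at L1 (RPKM, log axis), one point per gene at the mean of the 2 files. Most members lie close to the medians of 3376 and 2826 RPKM, and *rpl-42* lies far below all others at both stages.

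A few members did not share this level. *rpl-42* had 0.882 and 0.943 RPKM in WT at L4 and 0.529 and 0.335 RPKM in WT at L1, so it was scarcely read at either stage. *rpl-7A* had 13.8 and 6.31 RPKM in WT at L4 and 259 and 205 RPKM in WT at L1. *rpl-2*, the counterpart of human RPL8, had 38.7 and 104.4 RPKM in WT at L4, against 453 and 338 RPKM in WT at L1. Both genes were thus far below the family at L4 and nearer to it at L1. Of the members with decimal-numbered names, *rpl-24.2* had 104.2 and 101 RPKM in WT at L4 and 219 and 182 RPKM in WT at L1. *rpl-11.1* went the other way, with 566 and 564.4 RPKM in WT at L4 and 113 and 60.5 RPKM in WT at L1. Reads were aligned without splicing, so that genes with short exons lose reads over junctions, and levels per exon length carry that loss.

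The share of all gene reads that fell on the family needs no scaling between libraries, and it differed between the L4 strains. Members took 9.19% and 9.22% of gene reads in the 2 files of *cer1*, 10.4% and 10.4% in *nr2027*, and 13.1% and 13.2% in the double mutant, against 14.8% and 14.8% in WT. Both single mutants lay below the double mutant, and all 3 lay below WT. Each L4 strain is 1 sample, so the closeness of its 2 files gives no spread between samples. At L1 the share was 12.3% ± 0.609 in *cer2*, 9.97% ± 0.717 in *cer9* and 11.5% ± 1.68 in WT (SD, n = 2 each). The libraries read 12.8% and 11.9% in *cer2*, 9.47% and 10.5% in *cer9*, and 12.7% and 10.4% in WT, so both mutants overlapped WT. An exact permutation test of 2 against 2 libraries cannot give a p below 0.333, so these shares were not tested. By group mean, reads on large subunit genes were 1.18 to 1.24 times those on small subunit genes in the 7 groups. In the L4 files this ratio was 1.26 and 1.22 in *cer1*, 1.25 and 1.21 in *nr2027*, and 1.21 and 1.17 in the double mutant. It was 1.20 and 1.17 in WT at L4. These differences in the balance between the subunits were small and were not tested. In whole animals, fewer cells of a type and less RNA per cell cannot be told apart.

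**Figure D2:**
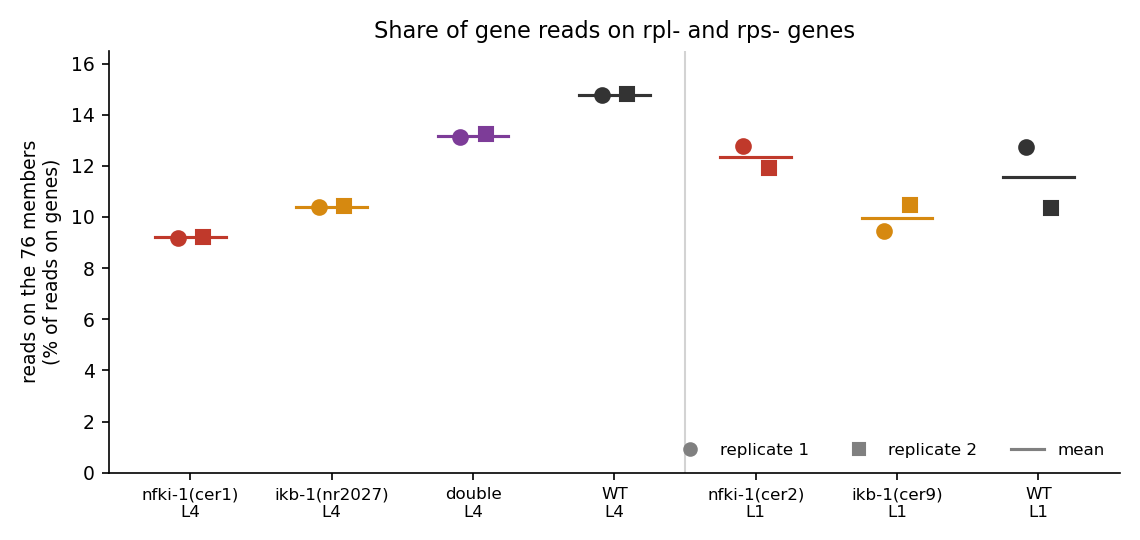
Percent of gene reads on the 76 members in each of the 14 libraries, by group, with a line at each group mean. The L4 files of *cer1* (9.19% and 9.22%) and *nr2027* (10.4% each) sit below those of the double mutant (13.1% and 13.2%) and WT (14.8% each). At L1 each mutant overlaps WT.

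In *nfki-1(cer1)* at L4 nearly the whole family was lower than in WT by a similar amount. The median change was -1.14 on the log2 scale after TMM scaling, with quartiles of -1.21 and -1.08, and large and small subunit genes were alike (medians -1.13 and -1.16). The median over all genes tested was 0.00. Of 76 members 73 were lower and 69 were at least 2-fold lower, a change that 22.8% of the 21293 genes tested also showed. Only 11 members passed edgeR's quasi-likelihood test at an adjusted p below 0.05, where 5.48% of all genes were called lower, and no member was called higher, where 9.52% of all genes were. At an unadjusted p below 0.05, 72 members were lower, against 15.9% of all genes, and 2, *rpl-11.1* and *rpl-42*, were higher, against 17.1%. The 11 that fell were *rpl-1*, *rpl-7A*, *rpl-11.2*, *rpl-18*, *rpl-22*, *rpl-25.1*, *rpl-33*, *rpl-39*, *rps-2*, *rps-13* and *rps-22*, of which those outside the naming rule are given because they passed. Abundant genes as a class were also lower: the 1804 genes with at least 100 CPM on average had a median of -0.39, which turned to 0.082 with library totals alone. The size of the family's change rested on the scaling. With library totals alone, which moved the median of all genes to 0.10, the family median was -0.67, 2 members were at least 2-fold lower (13.7% of genes) and 2, *rpl-11.2* and *rpl-25.1*, fell (2.2% of genes), while DESeq2 called 72 lower (12.2% of genes) and *rpl-11.1* higher (12.4%). Without file 1 of each L4 pair 26 members fell by edgeR's test (5.59% of genes), and without file 2, 8 did (4.64%).

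In *ikb-1(nr2027)* at L4 the family was lower by somewhat less. The median change was -0.91, with quartiles of -0.96 and -0.84, and 12 of 76 members were at least 2-fold lower, that is 15.8% of members, against 21.2% of all genes. The 2 members *rpl-11.2* and *rpl-25.1* fell at an adjusted p below 0.05 in edgeR's quasi-likelihood test, where 2.94% of genes were called lower, and none was called higher, where 7.48% of genes were. At an unadjusted p below 0.05, 66 members were lower (13.9% of all genes) and 1, *rpl-11.1*, was higher (16%). Genes of at least 100 CPM had a median of -0.35, which turned to 0.055 with library totals alone. With those totals the family median was -0.50 and *rpl-11.2* alone fell (1.18% of genes), and DESeq2 called 61 lower (9.26% of genes) and *rpl-11.1* higher (11.3%). Most members lay close to the 2-fold limit, so the count at least 2-fold lower moved to either side of the share of all genes: it was 21 (27.6% of members, against 21.9% of genes) without file 1 of each L4 pair, 29 (38.2%, against 22.7%) with TMM factors from non-members and 2 (2.63%, against 13.2%) with library totals alone.

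In the double mutant, which carries both alleles, the family stood nearer to WT than in either single mutant. The median change was -0.35, with quartiles of -0.40 and -0.30, and no member was 2-fold lower, against 10.4% of all genes. With library totals alone the median was -0.16. No member passed edgeR's quasi-likelihood test, where 0% of genes were called in either direction. At an unadjusted p below 0.05 no member was lower (4.7% of genes) and *rpl-11.1* and *rpl-42* were higher (8.6%), and DESeq2 called no member (3.18% of genes higher and 1.46% lower). Set directly against *cer1*, members of the double mutant were higher by a median of 0.80, with 75 of 76 higher. None passed the adjusted test, where 0.348% of genes were called higher, and the smallest adjusted p was 0.0677 (edgeR). At an unadjusted p below 0.05, 44 were higher (9.13% of genes). Against *nr2027* the median was 0.55 with 74 of 76 higher, none called where 0% of genes were, a smallest adjusted p of 0.160 (edgeR) and 5 members at an unadjusted p below 0.05 (6.73% of genes), of which *rpl-11.2* and *rpl-25.1* had the greatest change. With library totals alone these medians were 0.53 against *cer1* and 0.34 against *nr2027*. All comparisons with WT at L4 share the same WT sample, and these differences between mutants do not use it.

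**Figure D3:**
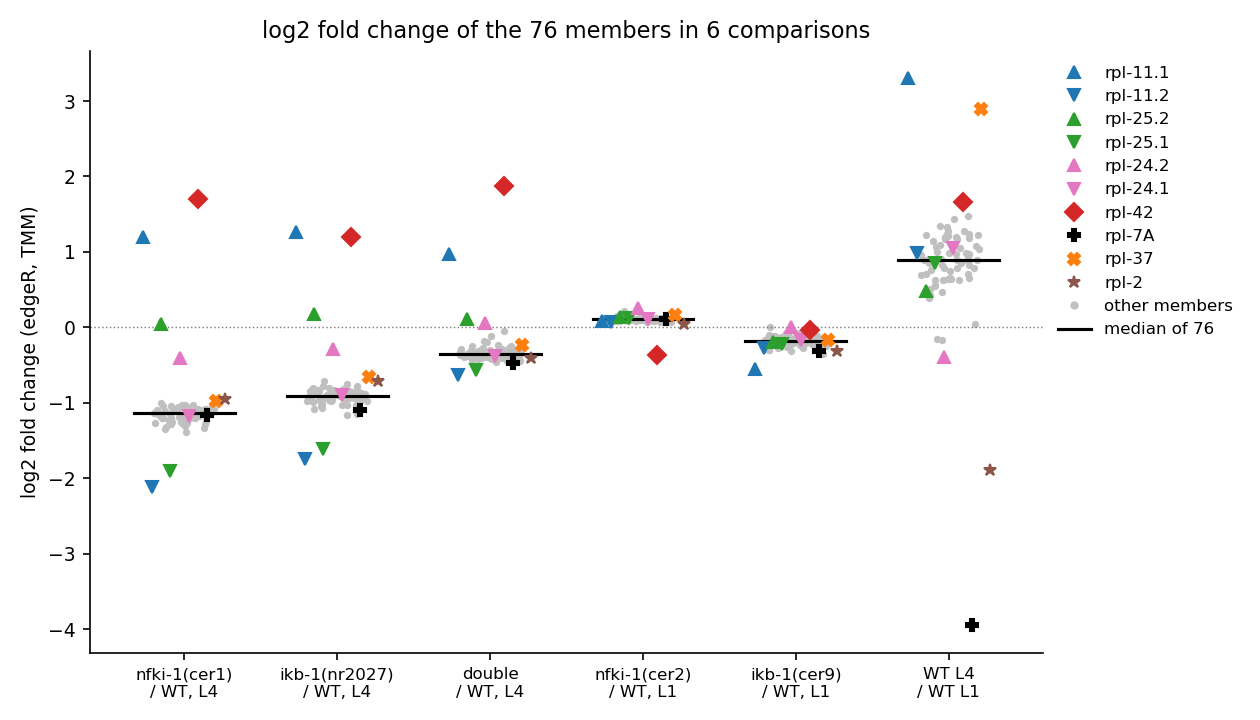
Log2 change of each of the 76 members in the 3 L4 and the 2 L1 mutants against WT, and in WT at L4 against WT at L1. The family median of each comparison is marked. At L4 most members lie in a narrow band around -1.14 in *cer1*, -0.91 in *nr2027* and -0.35 in the double mutant, and *rpl-42*, *rpl-11.1* and *rpl-25.2* lie above the band in the single mutants.

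The highly expressed members *rpl-10* and *rps-25* followed this pattern. *rpl-10* had 2375 and 2623 CPM in *cer1*, 2767 and 3059 CPM in *nr2027* and 4445 and 4775 CPM in the double mutant, against 5470 and 5869 CPM in WT. *rps-25* had 1787 and 1775 CPM in *cer1*, 2067 and 2081 CPM in *nr2027* and 3450 and 3304 CPM in the double mutant, against 4281 and 3983 CPM in WT. For both genes the order was the same in every file, with *cer1* lowest and WT highest. Taken file by file, the family median was -1.14 and -1.14 in *cer1*, -0.90 and -0.91 in *nr2027* and -0.35 and -0.35 in the double mutant.

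3 members departed from the family by more than 1 on the log2 scale in *nfki-1(cer1)*, namely *rpl-42*, *rpl-11.1* and *rpl-25.2*, and the same 3 did in *ikb-1(nr2027)*. In the double mutant *rpl-42* and *rpl-11.1* did. In *cer1* the departing member nearest to this limit was *rpl-25.2*, 1.18 above the family median. The nearest that did not depart was *rpl-11.2*, 0.97 below the median. 2 of these departing members belong to pairs of genes that share a number and differ by a decimal. They are called copies here by name alone, and whether both genes of a pair make the same protein was not checked. The files hold 3 such pairs, for *rpl-11*, *rpl-24* and *rpl-25*.

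The *rpl-11* pair encodes the protein that enters the large subunit together with the smallest ribosomal RNA of that subunit. *rpl-11.2* had 590 and 701 CPM in *cer1*, 751 and 912 CPM in *nr2027* and 1665 and 1944 CPM in the double mutant, against 2595 and 2995 CPM in WT. *rpl-11.1* had 1149 and 1153 CPM in *cer1*, 1192 and 1218 CPM in *nr2027* and 982 and 984 CPM in the double mutant, against 502 and 501 CPM in WT. In the 3 mutants, which are 1 sample each, *rpl-11.2* was below WT and *rpl-11.1* above it. *rpl-11.2* fell by 2.11 on the log2 scale in *cer1* (SE 0.321, adjusted p = 0.0130, edgeR) and by 1.75 in *nr2027* (SE 0.317, adjusted p = 0.0255, edgeR), and its change of -0.63 in the double mutant did not pass (adjusted p = 0.468, edgeR). The changes of *rpl-11.1* were 1.20 (SE 0.392, adjusted p = 0.0897), 1.26 (SE 0.393, adjusted p = 0.0938) and 0.97 (adjusted p = 0.365) by edgeR, none of which passed. In the single mutants they passed with DESeq2 (adjusted p = 0.049 in *cer1* and 0.041 in *nr2027*).

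In the single mutants the 2 copies thus changed places as the major one. *rpl-11.1* made up 66.1% and 62.2% of the reads of its pair in the files of *cer1*, 61.4% and 57.2% in *nr2027* and 37.1% and 33.6% in the double mutant, against 16.2% and 14.3% in WT. This share depends on no scaling between libraries, and no file of a mutant overlapped WT. The log2 ratio of the copies was higher than in WT by 3.31, 3.02 and 1.60 in *cer1*, *nr2027* and the double mutant, where the SD between L1 replicates was 0.273. The CPM of both copies added up changed less than that of *rpl-11.2* alone, to a mean of 1796 in *cer1*, 2037 in *nr2027* and 2788 in the double mutant, against 3297 in WT. At L1 *rpl-11.1* was the minor copy throughout, with 3.52% in *cer2* and 2.90% in *cer9*, against 3.44% in WT.

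The *rpl-25* pair, counterparts of human RPL23A near the exit of the peptide tunnel, behaved in a like way. *rpl-25.1* had 256 and 306 CPM in *cer1*, 305 and 384 CPM in *nr2027* and 647 and 771 CPM in the double mutant, against 979 and 1127 CPM in WT. *rpl-25.2* had 811 and 912 CPM in *cer1*, 890 and 1010 CPM in *nr2027* and 862 and 951 CPM in the double mutant, against 807 and 868 CPM in WT. *rpl-25.1* was thus well below WT in both single mutants, and *rpl-25.2* lay near or above the WT values in every mutant. *rpl-25.1* fell by 1.91 in *cer1* (SE 0.294, adjusted p = 0.0135, edgeR) and by 1.61 in *nr2027* (SE 0.291, adjusted p = 0.0254, edgeR), a call that library totals alone did not keep in *nr2027* (-1.20, adjusted p = 0.071). *rpl-25.2* changed by 0.04, 0.18 and 0.11 in *cer1*, *nr2027* and the double mutant, with adjusted p of 0.770 or more (edgeR). The first of these turned negative under RLE scaling, under TMM factors from non-members and with DESeq2. The share of *rpl-25.2* in its pair was 75.5% in *cer1*, 73.4% in *nr2027* and 56.2% in the double mutant, against 44.4% in WT, and at L1 it was 51.2% in *cer2* and 51.3% in *cer9*, against 50.9% in WT.

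In the *rpl-24* pair, which is paired by name alone, the shift was smaller than in the *rpl-25* pair of the same strain. The log2 ratio of *rpl-24.2* over *rpl-24.1* was higher than in WT by 0.77 in *cer1*, 0.60 in *nr2027* and 0.44 in the double mutant. The SD of this ratio between L1 replicates was 0.286. For *rpl-25.2* over *rpl-25.1* the changes in these strains were 1.95, 1.80 and 0.69. *rpl-24.1* had 994 and 1482 CPM in *cer1*, 1215 and 1800 CPM in *nr2027* and 1693 and 2613 CPM in the double mutant, against 2224 and 3376 CPM in WT. *rpl-24.2* had 62.4 and 60.4 CPM in *cer1*, 67.0 and 66.2 CPM in *nr2027* and 85.4 and 84.1 CPM in the double mutant, against 82.4 and 80.2 CPM in WT. *rpl-24.2* took the smaller part of the reads of the pair in every group, at 4.91% in *cer1*, 4.39% in *nr2027* and 3.96% in the double mutant, against 2.95% in WT. Neither gene passed the test in any L4 mutant. Where copies are near-identical, the authors' counting could assign reads to either or to neither, so the split within a pair is less certain than its sum.

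**Figure D4:**
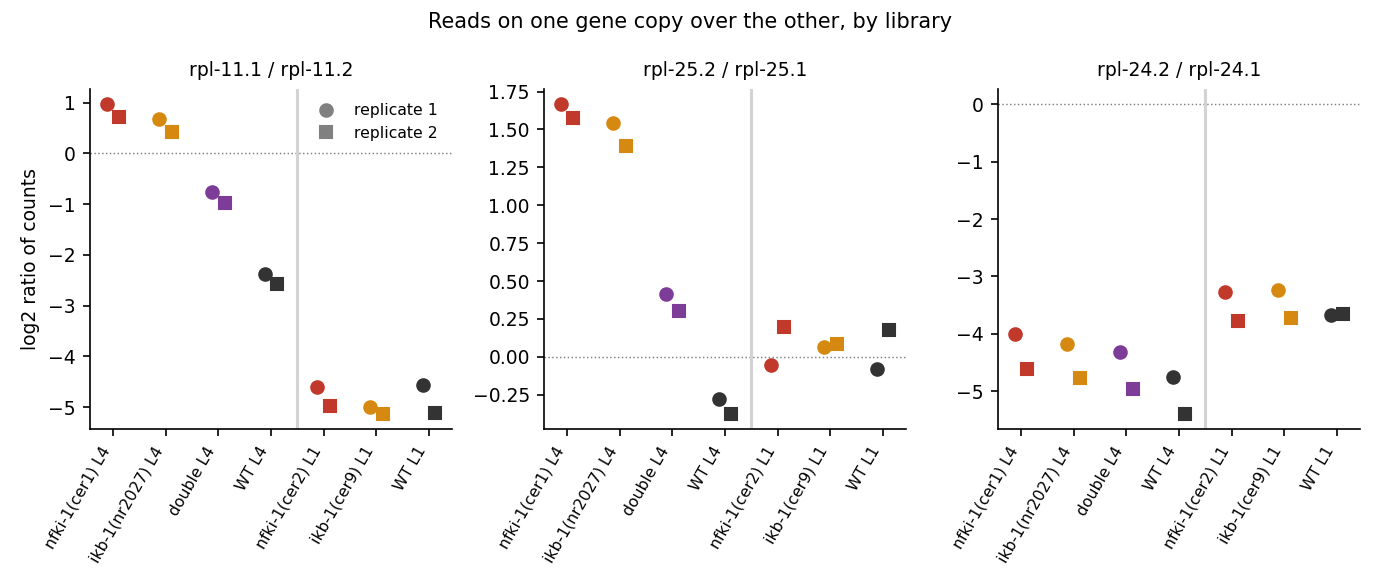
Log2 ratio of the counts of *rpl-11.1* over *rpl-11.2*, *rpl-25.2* over *rpl-25.1* and *rpl-24.2* over *rpl-24.1*, in each of the 14 libraries by group. The *rpl-11* ratio stands at 0.42 to 0.96 in the single mutants at L4, against -2.37 and -2.58 in WT, and at -5.13 to -4.57 in the L1 groups.

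Of the 75 annotated members, 21 lie on chromosome I, 9 on II, 18 on III, 17 on IV, 8 on V and 2 on X. The 2 on X are *rpl-11.2* (chromosome X, 2241738 to 2242618, minus strand) and *rpl-25.1* (chromosome X, 4715178 to 4715796, plus strand, Ensembl release 115 on WBcel235). Their partners are autosomal: *rpl-11.1* lies on chromosome V (3585312 to 3586064, minus strand) and *rpl-25.2* on chromosome I. The 2 X-linked members had the 2 most negative changes of all 76 in each of the L4 mutants. Next came *rps-2* in *cer1* (-1.38), *rps-17* in *nr2027* (-1.16) and *rpl-7A* in the double mutant (-0.47), of which *rps-2* and *rps-17* were picked after their values were seen. Abundant X-linked genes as a class also had lower medians than abundant autosomal ones. In *cer1* the 201 X-linked genes of at least 100 CPM had a median of -0.71 with 11.9% called lower, against -0.33 and 6.57% of the 1386 autosomal ones. In *nr2027* these values were -0.64 and 7.46% for X-linked genes, against -0.28 and 3.25% for autosomal genes. The difference between X-linked and autosomal genes was not tested, and 2 members are too few to set chromosome X apart within the family.

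*rpl-42* was the third member above the band, and it rested on few reads. It had 71 and 62 counts in *cer1*, 48 and 31 counts in *nr2027* and 65 and 48 counts in the double mutant, against 14 and 15 counts in WT. Counts were higher than WT in each of the mutants, which are 1 sample each. The changes of 1.70, 1.19 and 1.87 on the log2 scale did not pass (adjusted p = 0.101, 0.231 and 0.252 by edgeR). At L1 it had 13 to 23 counts in all 6 libraries, where libraries are about 3 times as deep as at L4. *rpl-42* lies on chromosome II (11092713 to 11094022, plus strand).

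The other parts of the protein-making machinery did not all move with the family. Of 6 ribosomal components outside the naming rule, which are the stalk proteins *rla-0*, *rla-1* and *rla-2*, the ubiquitin fusions *ubl-1* and *ubq-2*, and the scaffold *rack-1*, all were lower in each L4 mutant. Their medians were -1.26 in *cer1*, -0.97 in *nr2027* and -0.38 in the double mutant, or -0.79, -0.56 and -0.18 with library totals alone. Of the 6, *rla-2* fell in *cer1*, where 5.48% of all genes were called lower. *rla-0*, the most abundant, had 3343 and 3126 CPM in *cer1*, 3998 and 3739 CPM in *nr2027* and 5760 and 5496 CPM in the double mutant, against 7701 and 7340 CPM in WT. These components gave medians close to those of the family in each strain. Of the 66 ribosomal proteins of mitochondria, 6 fell in *cer1* (5.48% of all genes) and 2 (*mrpl-49* and *mrpl-54*) in *nr2027* (2.94% of all genes). Their medians were -0.67 and -0.61, against -0.27 in the double mutant. These medians were -0.20, -0.20 and -0.07 with library totals alone.

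Of 33 translation factors, *iff-2*, *eef-1A.2*, *eef-1B.1* and *ife-2* fell in *nfki-1(cer1)* and *ife-3* (a cap-binding protein) and *ifg-1* (its scaffold partner) rose. In *nr2027* *iff-2* and *eef-1A.2* fell and *ife-3* rose. The list medians were -0.53, -0.45 and -0.25 in *cer1*, *nr2027* and the double mutant, which with library totals alone were -0.06, -0.04 and -0.06. Genes of ribosome biogenesis went the other way. Of 16, *rbd-1*, *rpoa-2*, *nol-10* and *pro-2* rose in *cer1* and *rbd-1* and *rpoa-2* rose in *nr2027*, with none lower, and the medians were 0.91, 0.94 and 0.26 in *cer1*, *nr2027* and the double mutant, or 1.38, 1.35 and 0.45 with library totals alone. Of 9 genes of the TOR pathway, which couples growth to nutrients, *let-363* (the TOR kinase) and *daf-15* (its Raptor partner) rose in both single mutants, and the list medians were 0.77, 0.57 and -0.075 in *cer1*, *nr2027* and the double mutant, or 1.24, 0.98 and 0.12 with library totals alone, so that the sign turned in the double mutant. The 14 genes of the proteasome core gave no call at L4, with medians of -0.42, -0.35 and -0.14 that turned to 0.05, 0.06 and 0.05 with library totals alone. Genes named within these lists were chosen because they passed the test. Of all genes, 5.48% were called lower and 9.52% higher in *cer1*, and 2.94% lower and 7.48% higher in *nr2027*. None of these lists had a called gene in the double mutant, where edgeR called no gene at all.

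Marker genes of tissues also differed between the strains. Calls are to be read beside all genes, of which 9.52% rose and 5.48% fell in *cer1*. In *nr2027* 7.48% rose and 2.94% fell. All 16 germline markers rose in *cer1* and in *nr2027*, with medians of 3.34 and 3.21, and none passed in the double mutant, where all 16 were higher by a median of 1.84. Their summed level was 5109 to 5325 CPM in *cer1*, 4771 to 4967 CPM in *nr2027* and 1871 to 1945 CPM in the double mutant, against 485 to 491 CPM in WT, and none of the 16 was at 0 in any strain. The germline list took 0.532%, 0.476% and 0.161% of gene reads in these mutants, against 0.0360% in WT. Among 8 epidermis markers, *sqt-3*, *dpy-13* and *che-14* fell in *cer1* and *sqt-3* and *che-14* in *nr2027*. Their summed level was 816 to 838 CPM in *cer1*, 1244 to 1286 CPM in *nr2027* and 3784 to 3921 CPM in the double mutant, against 6091 to 6379 CPM in WT. Of 9 neuron markers *sbt-1*, *ric-4* and *snt-1* fell in *cer1* and *sbt-1* in *nr2027* (medians -0.95, -0.85 and -0.49 in the 3 mutants). In each single mutant 2 of the 9 were higher than in WT, by up to 0.74 in *cer1* and 0.78 in *nr2027*, with none called. The 8 intestine markers (medians -0.88, -0.996 and -0.47) and the 8 markers of body wall muscle (-1.41, -0.91 and -0.41) gave no call. With library totals alone these medians were -0.48, -0.44 and -0.30 for neurons, -0.41, -0.59 and -0.28 for intestine and -0.94, -0.50 and -0.21 for muscle. The part of tissue makeup in the family's change at L4, and in the copy shift, was not tested.

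**Figure D5:**
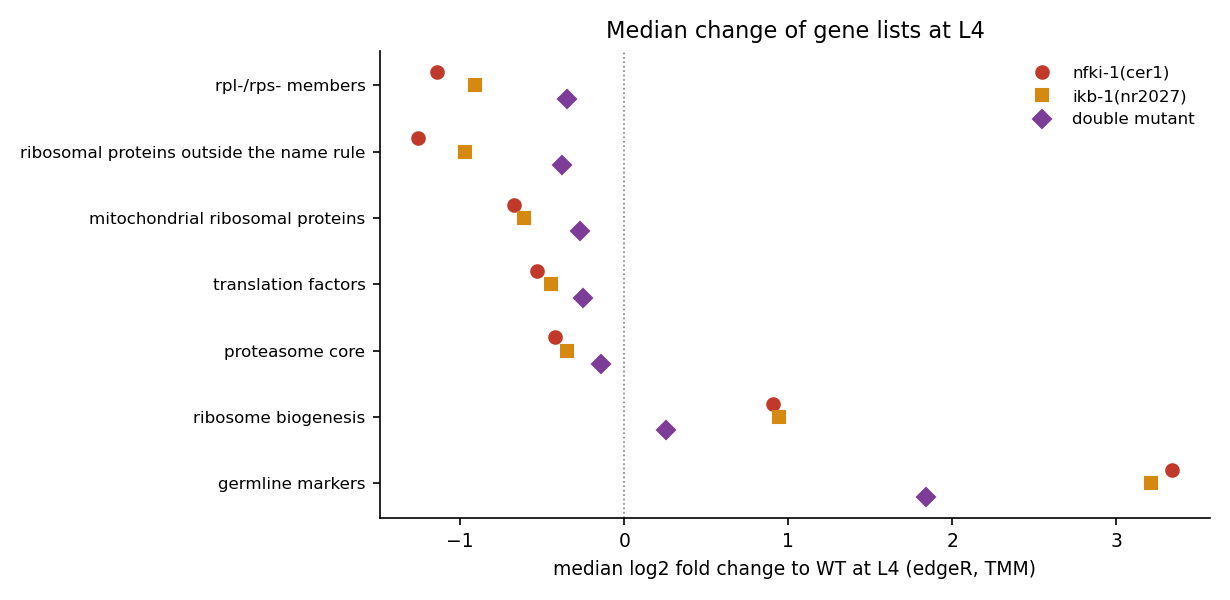
Median log2 change of the family, the other ribosomal, translation factor and ribosome biogenesis lists, the proteasome core and germline markers in the 3 L4 mutants against WT. The family and the ribosomal components outside the naming rule lie together below 0, ribosome biogenesis lies above 0, and germline markers lie highest, at 3.34, 3.21 and 1.84.

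The name rule used neither exon length nor position. In the double mutant the rank of a member's change went down with the length of its exons (Spearman -0.72 over 75 genes of the same libraries), but the Pearson correlation with log2 length was only -0.11. In *cer1* and *nr2027* the Spearman values were -0.21 and -0.25 and the Pearson values 0.019 and 0.0017. Genes are not independent replicates, and these are descriptions. The 13 members that hold a small nucleolar RNA gene within their span had a median of -1.11 in *cer1*, against -1.15 for the other 62, and of -0.38 in the double mutant, against -0.35, so the order was not the same in both strains.

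In L1 larvae, fed and then starved, no member passed the test in either mutant. In *cer2* the family median was 0.11, with quartiles of 0.09 and 0.12 and 75 of 76 higher. In *cer9* it was -0.18, with quartiles of -0.23 and -0.14 and 75 of 76 lower. With 1 library left out the median ranged over 0.041 to 0.18 in *cer2* and -0.32 to -0.037 in *cer9*, each extreme reached by leaving out a library of the mutant, and without *cer9* replicate 1 only 45 members were lower. No member was called by edgeR's quasi-likelihood test, where 0% of the 19183 genes tested did. At an unadjusted p below 0.05 no member passed either, where 0.344% of genes were higher and 0.568% lower in *cer2*, and 0.735% higher and 0.485% lower in *cer9*. DESeq2 called no member, and 0.0104% of genes in each direction in *cer2*, with 0.0313% higher and 0.0469% lower in *cer9*. Both *cer2* libraries lay above both WT libraries for 33 members, where this held for 11.3% of all genes, and below for 1, *rpl-42* (10.4%). Both *cer9* libraries lay below both WT libraries for 38 members (8.71% of all genes) and above for none (7.74%). Members moved together from library to library. The 2 libraries of *cer9* differed from each other by a family median of -0.26, replicate 1 over replicate 2, which is more than the change against WT, and those of *cer2* differed by -0.15. Without replicate 1 the log2 ratio of the family's read share in *cer9* against WT was 0.017, in place of -0.21.

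The L1 members of smallest p in *nfki-1(cer2)* were *rpl-24.2* (0.26 on the log2 scale, unadjusted p = 0.251 by edgeR), *rpl-39* (0.22) and *rps-12* (0.17). *rpl-24.2* had 142 and 112 CPM in *cer2*, against 108 and 105 CPM in WT. In *cer9* they were *rpl-11.1* (-0.55, unadjusted p = 0.0835 by edgeR), *rpl-38* (-0.35) and *rpl-7A* (-0.32). *rpl-11.1* had 34.8 and 36.0 CPM in *cer9*, against 62.4 and 39.2 CPM in WT, and its partner *rpl-11.2* had 1113 and 1258 CPM, against 1479 and 1349 CPM in WT. For both copies the mutant libraries lay below the WT libraries, but the WT values of *rpl-11.1* were themselves far apart. For the effect of *nfki-1* mutation at L4 minus that at L1, the family median was -1.25, with 74 of 76 members negative. At least 2-fold lower were 71 members, against 23.6% of genes. With library totals alone the median was -0.78, and 2 members were at least 2-fold lower, against 14.8% of genes. This difference between the stage effects was tested in 1 model. It was lower for *rpl-11.2* (-2.19, adjusted p = 0.0310, edgeR) and *rpl-25.1* (-2.02, adjusted p = 0.0307, edgeR), where 1.52% of genes were called lower, and no other member passed. With library totals alone *rpl-25.1* no longer did (-1.55, adjusted p = 0.0737, edgeR), and 0.686% of genes were called lower. For *ikb-1* no member passed (smallest adjusted p = 0.0790, edgeR), where 3.75% of genes were called higher and 0.676% lower. At an unadjusted p below 0.05, 5 were lower (10.1% of genes), *rpl-11.2* and *rpl-25.1* among them, and *rpl-11.1* was higher (13.4%). DESeq2 called *rpl-11.1* higher (8.06%) and *rpl-11.2* and *rpl-25.1* lower (4.84%).

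In WT the family was higher at L4 than in L1 larvae that had been fed and then starved. Stage, sequencing depth and the processing of the 2 sets cannot be told apart: reads too poorly aligned to be counted made up 6.97% to 7.83% at L4 and 1.25% to 1.44% at L1. The median change of the family was 0.89, against -0.59 for all genes and 0.65 for genes of at least 100 CPM. By edgeR's quasi-likelihood test 49 members rose, where 21.1% of genes did, and 2 fell (*rpl-7A* and *rpl-2*), where 26.6% of genes did. At least 2-fold higher were 28 members, against 24.4% of genes. With library totals alone, which moved the median of all genes to -1.16, the family median was 0.32 and that of genes of at least 100 CPM 0.088, with 8 members called higher (13.7% of genes), 2 lower (34.8%) and 3 at least 2-fold higher (17.2%). In mutants the family stood otherwise between the stages. All genes had medians of -0.51 in L4 *cer1* against L1 *cer2* and -0.57 in L4 *nr2027* against L1 *cer9*. For genes of at least 100 CPM these were 0.18 and 0.24. With library totals alone the family medians were -0.46 and 0.051. After TMM scaling the family medians lay between those of all genes and those of genes of at least 100 CPM. The median of L4 *cer1* against L1 *cer2* was -0.36, with *rpl-11.1*, *rpl-42* and *rpl-37* called higher (22.4% of genes) and 8 members lower (27.3%). That of L4 *nr2027* against L1 *cer9* was 0.17, with *rpl-25.2* and the same 3 higher (23% of genes) and *rpl-7A*, *rpl-2*, *rpl-29* and *rps-21* lower (28.2%).

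7 members departed from the family by more than 1 between the stages in WT, namely *rpl-7A*, *rpl-2*, *rpl-24.2*, *rps-21* and *rpl-29* below it and *rpl-37* and *rpl-11.1* above it. Nearest to the limit were *rpl-29* just beyond it (-1.05 from the median) and *rpl-43* within it (-0.85). *rpl-7A* was the most extreme. It had 16.1 and 7.35 CPM in WT at L4, against 188 and 174 CPM in WT at L1, and the mutants repeated this, with 3.995 to 11.3 CPM at L4 against 146 to 210 CPM at L1. No L4 file came near any L1 library. *rpl-7A* fell by 3.95 in WT at L4 (SE 0.285, adjusted p = 0.00055, edgeR), and the change was -4.73 without file 1 and -3.55 without file 2. It lies on chromosome IV (4389143 to 4390590, minus strand), holds 2 small nucleolar RNA genes and overlaps a noncoding gene on the other strand. Since the strand setting of the counting is not given in the sources used here, reads of the overlap cannot be assigned.

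*rpl-2* was lower at L4 in a similar manner but its L4 files disagreed. It had 45.3 and 122 CPM in WT at L4, against 331 and 289 CPM in WT at L1, and fell by 1.88 (adjusted p = 0.00312, edgeR). The change was -2.83 from file 1 alone and -1.44 from file 2 alone. *rpl-11.1* showed the greatest rise, with 502 and 501 CPM in WT at L4, against 62.4 and 39.2 CPM in WT at L1 (3.30, SE 0.327, adjusted p = 0.0011, edgeR). Its L4 files were equal and lay far above both L1 libraries. *rpl-42* rose by 1.66 in the same comparison (adjusted p = 0.0376, edgeR) from the few reads given above.

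*rpl-37* showed how much the choice of file can matter. In files 1 and 2 at L4 it had 396 and 44.5 CPM in *cer1*, 497 and 52.0 CPM in *nr2027* and 658 and 80.0 CPM in the double mutant, against 771 and 97.7 CPM in WT. File 1 was far above file 2 in every strain, while the L1 libraries of all strains lay between 46.7 and 71.1 CPM. Its change between the stages in WT was 2.89 (adjusted p = 0.00083, edgeR), 3.66 with file 1 alone, and 0.63 with file 2 alone, where it did not pass (adjusted p = 0.075, edgeR). *rps-21* had 1032 and 304 CPM in WT at L4, against 783 and 712 CPM in WT at L1, and *rpl-29* had 958 and 288 CPM in WT at L4, against 723 and 663 CPM in WT at L1. Both had L4 files on either side of the L1 libraries, and the sign of the change followed the file, -0.16 and -0.15 from both files added up and 0.40 and 0.41 from file 1 alone. *rpl-38* differed the other way, with 1027 and 2158 CPM in WT at L4. These 4 genes and *rpl-2* were the members whose files differed by more than 2-fold in all 4 L4 strains. In both files of each of these 5 genes the L4 strains stood in the same order, *cer1* lowest, then *nr2027*, the double mutant and WT, with *rps-21* at 464, 561 and 826 CPM in file 1 of *cer1*, *nr2027* and the double mutant, against 1032 CPM in WT.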

How the data were processed

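RNA-seq covered whole larvae in 14 libraries of 7 groups. According to the methods and labels, the authors trimmed reads with Trim Galore, aligned them to WBcel235 with Bowtie2, which does not splice reads, and counted them per gene with HTSeq. The deposited counts are whole numbers with no normalization. The annotation release and strand setting are not given in the sources used here, and the sources differ on read length. Lines of a file that name no gene, 13.4% to 15.9% of reads at L4 and 15.9% to 20.0% at L1, were kept out of library sizes and tests.

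Genes were kept with edgeR's filterByExpr (minimum count 10), scaled by TMM and tested by edgeR 4.0.16 (glmQLFit and glmQLFTest) in R 4.3.3, with Benjamini-Hochberg adjustment over all genes and calls at an adjusted p below 0.05. L4 strains, with files added up to 1 sample each, were fitted with the 6 L1 libraries, whose replicates give the spread. A lone L4 sample is thus assumed to vary like the L1 groups. The L1 mutants were tested on the 6 L1 libraries alone. Alternatives were RLE factors, library totals, TMM factors from non-members, no filter, DESeq2 1.42.0, each replicate left out, both L4 files as replicates, a replicate block, other denominators of the share, and members of at least 100 CPM. The differences between stage effects, the double mutant against single mutants, the mutants between stages and the copy ratios were added after the data were seen. Standard errors were derived from the fold change and its F statistic. The scripts were tested on simulated data. Summaries were made with pandas 2.3.3, numpy 2.4.6 and scipy 1.17.1 and plots with matplotlib 3.10.9, under Python 3.11.15.

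Lengths and positions came from Ensembl release 115, in which *rpl-41* was not matched. Members named are the 3 highest and 3 lowest by RPKM in WT at each stage, those over 1 from the family median, the 3 of smallest p in the L1 and stage comparisons, decimal-numbered copies and *rpl-7A*. Members and lists were chosen with earlier results of these data known.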

Additional observations from a re-analysis of the deposited data

Results flagged for a closer look

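For *rpl-11.2* and *rpl-25.1*, the effect of *nfki-1* mutation differed between the stages by a test of the difference itself. The L4 effect of *nfki-1(cer1)* minus the L1 effect of *nfki-1(cer2)* was -2.19 on the log2 scale for *rpl-11.2* and -2.02 for *rpl-25.1* (adjusted p = 0.0310 and 0.0307, edgeR). They are the 2 members on chromosome X, but the difference was negative for 74 of 76 members, with a family median of -1.25. The alleles, the depth of sequencing and the stage differ together between the terms of this difference and cannot be told apart.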

How the results depend on the processing

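The direction of the family median was the same under every alternative of the L4, L1 and stage comparisons, and its range was -1.20 to -0.67 in *cer1*, -0.97 to -0.50 in *nr2027* and -0.42 to -0.16 in the double mutant. Counts of called members depended strongly on the fit, and the share of all genes called in either direction is given in parentheses. In *cer1* the 11 members (15%) became 41 with RLE factors (15.9%), 2 with library totals (14.4%), 32 with TMM factors from non-members (15.7%), 73 with DESeq2 (24.7%) and 64 with both files as replicates (79.6%). In *nr2027* the 2 members (10.4%) became 1 with library totals (10.9%), 62 with DESeq2 (20.6%) and 63 with both files as replicates (77.1%). In the double mutant none (0%) became 50 with both files as replicates (62.1%). With both files as replicates the members called in either direction were 84.2%, 82.9% and 65.8% of the family in these strains, close to the shares of all genes. Members called lower were 81.6%, 78.9% and 63.2% of the family, against 40.2%, 38.3% and 32.1% of genes. Leaving out 1 replicate gave 8 to 26 members in *cer1* (13.3% and 14.2%). With library totals the family medians were -0.67, -0.50 and -0.16 in *cer1*, *nr2027* and the double mutant and 0.32 between the stages, the members at least 2-fold lower were 2 in each single mutant (13.7% and 13.2% of genes in *cer1* and *nr2027*), and the stage comparison called 10 members (48.5%), with 3 at least 2-fold higher (17.2%). The 12 members at least 2-fold lower in *nr2027* (21.2%) became 29 with TMM factors from non-members (22.7%), 6 with both files as replicates (20%) and 13 to 21 with 1 replicate left out (20.9% and 21.9%).

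With the replicate block the called members were 70 in *cer1* (32.2% of genes), 20 in *nr2027* (28.3%), 0 in the double mutant (4.41%) and 57 between the stages (61%). The 2 members called for the difference of the *nfki-1* effects (6.52%) became 70 with DESeq2 (15.5%) and 31 with the block (21.7%), and none for *ikb-1* (4.42%) became 3 with DESeq2 (12.9%) and 3 with the block (18.8%). The labels tie same-numbered libraries of different strains by nothing but that number. Across 12117 genes, though, the differences between replicates of the L1 strains correlated at r = 0.389 to 0.696 (0.184 to 0.523 across members), which is a hint of pairing from the data, not from the design. The log2 ratio of the family's read share was 0.017 without replicate 1 and -0.43 without replicate 2 in *cer9* at L1, and 0.21 to 0.52 between the stages in WT. Some single values turned sign, with the cause not tested. With library totals *rpl-24.2* was 0.063 in *cer1* and 0.12 in *nr2027* at L4, and between the stages *rpl-25.2* was -0.093 and *rpl-43* was -0.53. *rpl-25.2* in *cer1* was -0.0033 with RLE factors or DESeq2 and -0.018 with TMM factors from non-members, and *rpl-24.2* in the double mutant was -0.0070 with RLE factors or DESeq2. Between the stages, leaving out 1 replicate gave -0.43 to 0.26 for *rpl-43*, -1.37 to 0.41 for *rpl-29* and -1.40 to 0.40 for *rps-21*, and *rpl-43* was -0.049 with both files as replicates. At L1 copy ratios with 1 replicate left out gave changes of -0.032 to 0.13 for *rpl-11* and -0.12 to 0.39 for *rpl-24* in *cer2*, and -0.093 to 0.15 for *rpl-25* and -0.077 to 0.43 for *rpl-24* in *cer9*. An L4 strain is 1 sample, so its p rests on L1 spread, and members read fewer than 100 times, such as *rpl-42*, are limited by depth.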
